A study of Mus musculus with 10 samples.

Results

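The apical fusion machinery of the enterocyte was examined as a set of 10 genes. They encode the target membrane SNARE syntaxin 3 (Stx3), its Sec1/Munc18 partner Munc18-2 (Stxbp2), the vesicle SNAREs Vamp7 and Vamp8, the synaptotagmins Syt7 and Syt8, and the synaptotagmin-like proteins Sytl1, Sytl2, Sytl4 and Sytl5. The genes were chosen by name, and 9 of the 10 were found among the 35275 genes of the deposited expression table. Vamp7 was not analysed here. All 9 averaged 0.1 FPKM or more over the 10 libraries, the level required for testing, although Syt8 reached it only through the knockout libraries.

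Vesicles that carry microvillar proteins fuse with the apical membrane when SNARE proteins on the vesicle and on the target membrane zip together. Munc18-2 binds syntaxin 3 and promotes this step, and synaptotagmin-like proteins link vesicles that carry Rab27 or related Rab GTPases to the plasma membrane. Myosin Vb, the motor encoded by Myo5b, moves Rab11-positive recycling endosomes toward the apical surface. Mutations of MYO5B, STX3 and STXBP2 are known causes of microvillus inclusion disease, a congenital diarrhoea in which enterocytes lose apical transporters and form inclusions lined with microvilli.

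RNA of mechanically isolated jejunal epithelial cells was sequenced from 10 adult C57BL/6 mice, labelled as male, that all carried VillinCreERT2 and MYO5Bflox/flox, so that the villin promoter restricts deletion to the epithelium. The 3 control mice (2, 4 and 5) received corn oil, the 4 MYO5B-knockout mice (3, 5, 6 and 7) received a single dose of 2 mg tamoxifen and vehicle, and the 3 LPA-treated MYO5B-knockout mice (1, 4 and 5) received the same dose of tamoxifen and 3 mg/kg lysophosphatidic acid (LPA). Titles of the LPA-treated mice begin with ipL, and the paper uses ip for intraperitoneal injection. Its methods describe LPA given once a day for 4 days. Cells were collected on day 4, and tamoxifen and deletion cannot be told apart in comparisons with control mice. The description of LPA-treated mouse 1 names vehicle in one line and LPA in another, and it was grouped by its title.

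The libraries held 10949420 to 24470409 reads on genes. Myo5b itself, the deleted gene, lay between 16.5 and 32.0 FPKM in control mice and between 10.3 and 13.6 FPKM in the 7 knockout mice, without overlap. The difference of Myo5b from control mice did not pass with limma (adjusted p = 0.115 for MYO5B-knockout and 0.0939 for LPA-treated mice), but passed with edgeR (0.0268 and 0.0172), with the libraries scaled by the median of their ratios (0.0203 and 0.0123) and without control mouse 2 (0.0482 and 0.0329). Control mouse 2 and MYO5B-knockout mouse 3 gave libraries that stood apart, with 12242 and 12601 detected genes against 17309 to 18267 in the other 8, and with 17.4% and 18.1% of reads on mitochondrial genes against 1.98% to 3.50%. MYO5B-knockout mouse 3 and LPA-treated mouse 1 carried Xist (8.41 and 15.1 FPKM) and 0 reads on Y-linked genes, against their label. The 10 enterocyte markers were all detected in every group. They summed to 30250 to 40310 FPKM in control mice, 14190 to 25820 after knockout alone and 22250 to 42940 after knockout with LPA. Fabp1, Fabp2 and Apoa1 gave most of each sum, and single markers went different ways. Lct lay between 113.6 and 240.6 FPKM in control mice and reached at most 3.58 FPKM in the 7 knockout mice. Slc5a1 lay between 563.8 and 1012 FPKM in control mice and between 198.1 and 433.2 FPKM in knockout mice. Alpi reached 1081 FPKM after knockout alone and 1264 FPKM after knockout with LPA, beside at most 540.4 FPKM in control mice. In these bulk samples, fewer cells of a type and less RNA per cell cannot be told apart.

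The levels of the 9 genes spanned a wide range. FPKM is scaled to gene length, so levels of different genes can be compared within a group. In control mice Vamp8 was the most abundant (194.5 ± 135.9 FPKM, SD, n = 3), followed by Stxbp2 (64.7 ± 0.705) and Stx3 (19.6 ± 7.24), and these 3 ranges did not overlap. Sytl2 (2.42 ± 1.83), Sytl1 (1.40 ± 1.29) and Syt7 (1.10 ± 0.131) formed a group whose ranges overlapped. Sytl4 (0.485 ± 0.0542) and Sytl5 (0.0790 ± 0.0686) were lower, and Syt8 was absent from the reads. In the MYO5B-knockout mice Syt8 stood next after Stx3, at 13.8 ± 10.3 FPKM (n = 4) beside 42.2 ± 12.6 for Stx3, with no overlap between them, and its range overlapped that of Sytl2 (4.88 ± 2.63). In the LPA-treated mice the order was the same for the 5 most abundant genes, with Syt8 at 20.3 ± 12.2 FPKM (n = 3).

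**Figure D1:**
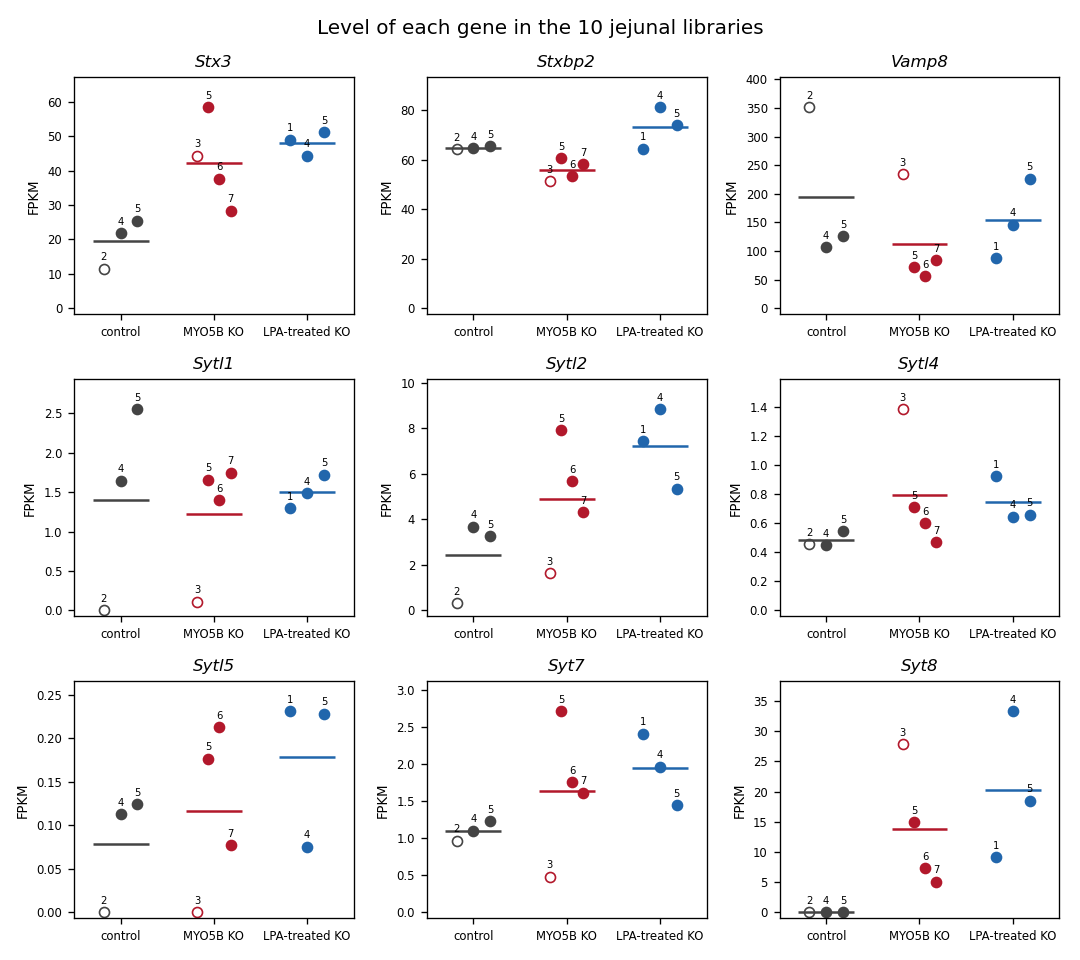
Level of each of the 9 genes in FPKM (vertical axis, separate scale from 0 in each panel) in control, MYO5B-knockout (KO) and LPA-treated knockout mice; each point is 1 mouse with its number, open circles are the 2 libraries with few detected genes (control mouse 2, MYO5B-knockout mouse 3), and lines are group means. Syt8 lies at 0 in the 3 control mice and between 5.07 and 33.3 FPKM in the 7 knockout mice, and every knockout mouse lies above every control mouse for Stx3.

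Whether loss of MYO5B was accompanied by a change of the fusion machinery was asked first. Of the 9 genes, 1 passed an adjusted p of 0.05 between MYO5B-knockout and control mice (limma, on log2 of FPKM + 0.1, adjusted over all 15729 genes tested), where 2.01% of all tested genes passed. That gene was Syt8, which rose. With edgeR's quasi-likelihood test on recovered reads it was also Syt8 alone, against 2.82% of all genes. By a second description, 2 of the 9 genes (Syt8 and Stx3) were higher in every MYO5B-knockout mouse than in every control mouse, and 11.0% of all tested genes were. The reverse held for 1 gene, Stxbp2, and for 6.20% of all tested genes. The fitted log2 fold change was above 0 for 7 of the 9 genes, with a median of 0.38, beside a median of 0.29 over all tested genes. With the libraries scaled by the median of their ratios, these medians were 0.28 and 0.04.

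Syt8 (ENSMUSG00000031098, chromosome 7 from 142434850 to 142440396, plus strand, GRCm38) encodes a synaptotagmin studied in the acrosome reaction of sperm and in insulin secretion by pancreatic islets. It had 0 reads in control mice 2, 4 and 5, which allows up to 3 reads, or 0.181, 0.130 and 0.114 FPKM. MYO5B-knockout mice 3, 5, 6 and 7 yielded 459, 388, 226 and 172 reads of Syt8, equal to 27.9, 15.0, 7.36 and 5.07 FPKM. LPA-treated mice 1, 4 and 5 yielded 335, 866 and 371 reads, equal to 9.11, 33.3 and 18.5 FPKM. Every knockout mouse thus had at least 172 reads where no control mouse had any, and the knockout mice themselves differed by several fold. Against the level of 3 reads in each control library, the mean was at least 97.7-fold higher in MYO5B-knockout mice and at least 143.6-fold higher in LPA-treated mice. Without MYO5B-knockout mouse 3 the first bound was at least 64.6-fold, and without LPA-treated mouse 4 the second was at least 97.7-fold. The difference passed in both comparisons with control mice (limma's adjusted p = 0.00112 and 0.000476), and also without the 2 libraries of few detected genes (limma's adjusted p = 0.00475 and 0.00152).

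Of the 10 genes, 7 had an upstream sequence in the RefSeq promoter table (GRCm38.p6), and Sytl2, Syt7 and Vamp7 did not. The 250 bases before the annotated start are shown for Syt8 and Stx3, the 2 genes whose levels were higher in every knockout mouse than in every control mouse. They were searched on both strands for 7 short patterns, and matches are in capitals. The pattern TGANTCA stood for the stress-responsive factor AP-1. The pattern GGAATG stood for the TEAD factors of the Hippo pathway. The pattern TTTATG stood for the intestinal CDX factors. The pattern AGATAA stood for the GATA factors. The pattern CAAAGTCC stood for the enterocyte factor HNF4. The pattern GGGCGG stood for the SP/KLF factors. The pattern TATAAA stood for the TATA box. The Syt8 sequence covers chr7:142434600-142434849 on the plus strand and the Stx3 sequence chr19:11819404-11819653 on the minus strand, both written 5′ to 3′.
Syt8: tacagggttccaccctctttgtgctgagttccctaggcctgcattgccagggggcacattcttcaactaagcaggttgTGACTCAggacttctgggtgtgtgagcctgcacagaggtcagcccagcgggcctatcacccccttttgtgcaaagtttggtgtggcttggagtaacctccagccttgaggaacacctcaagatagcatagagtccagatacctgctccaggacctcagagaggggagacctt
Stx3: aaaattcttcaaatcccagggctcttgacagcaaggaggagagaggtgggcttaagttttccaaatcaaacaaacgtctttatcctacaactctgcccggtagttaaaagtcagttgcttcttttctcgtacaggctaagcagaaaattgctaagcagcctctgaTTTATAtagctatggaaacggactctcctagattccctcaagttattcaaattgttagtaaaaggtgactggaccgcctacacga
The Syt8 sequence held 1 match, to the AP-1 letters, beginning 172 bases before the start, and 6.75% of 32851 mouse promoter windows of the same length held such a match. RefSeq lists 2 other starts of Syt8, and the 250 bases before one of them held a match to the CDX letters, found in 10.8% of windows. The Stx3 sequence held 1 match, to the TATA box letters, beginning 85 bases before the start, and 12.4% of windows held a match. This match lies on the strand opposite to the gene, so it is not a TATA box in the direction of Stx3. The upstream windows of Syt8 and Stx3 thus shared none of the 7 letter patterns. Their GC contents were 54.8% and 42.0%, beside a median of 52.4% over all windows, and they held 1 and 6 CpG dinucleotides, beside a median of 6. The window of Stxbp2, with 17 CpG dinucleotides and a GC content of 60.4%, held no match.

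Among the genes whose levels followed Syt8 most closely over the 10 libraries were Prl6a1 (Pearson's r = 0.993 on the log2 scale) and Dusp8 (r = 0.979), given as a description, since the points share the same split between control and knockout libraries. Prl6a1, a member of the prolactin gene family, whose copies may share reads, had 0 reads in every control library and between 22 and 56 in the knockout libraries. Dusp8, a phosphatase of stress-activated MAP kinases, lay between 4.64 and 5.62 FPKM in control mice and between 9.34 and 14.9 FPKM in knockout mice, and it is located on the same chromosome as Syt8, 339 kb away. Prl6a1 passed in both comparisons with control mice, and reached the level required for testing only through the knockout libraries. Dusp8 passed for LPA-treated mice only (limma's adjusted p = 0.0511 and 0.0475 for the 2 comparisons). Because both genes were picked by their likeness to Syt8, such differences were favoured in advance, and these tests add no separate evidence. Neither is part of the fusion machinery.

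Of the 3 other genes within 50 kb of Syt8, examined after its values were seen, Tnni2, a troponin I of fast skeletal muscle that begins just downstream of Syt8, had 0, 0 and 3 reads in control mice 2, 4 and 5. Tnni2 had 56, 37, 19 and 6 reads in MYO5B-knockout mice 3, 5, 6 and 7, and 41, 68 and 86 in LPA-treated mice 1, 4 and 5. Its levels were thus higher in every knockout mouse than in every control mouse, from far fewer reads than Syt8, and the difference between MYO5B-knockout and control mice did not pass (log2 fold change 3.49, limma's adjusted p = 0.0717). The other neighbours were Ctsd, the protease cathepsin D, with a log2 fold change of -0.20, and Lsp1, a leukocyte actin-binding protein, with -1.90 (limma's adjusted p = 0.886 and 0.0510).

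Summed marker genes of other cells also differed between groups for some cell types, and overlapped for others. The 12 leukocyte markers summed to 334.3 to 463.6 FPKM in control mice and to 20.5 to 141.0 FPKM in the 7 knockout mice. Gzma gave most of the control sums (225.9 to 331.4 FPKM). Not every marker fell: Itgam reached 2.89 FPKM after knockout alone, beside at most 1.72 in control mice. Lyz2 lay at 5.75 to 15.3 FPKM after knockout with LPA, beside at most 5.59 in control mice. The 8 proliferation markers summed to 84.5 to 114.9 FPKM in control mice and to 146.5 to 306.8 FPKM in knockout mice. In LPA-treated mouse 4, the lowest of the knockout mice, Pcna alone gave 89.8 FPKM. Mki67, Top2a, Mcm5 and Birc5 of that mouse lay within the control range, Mcm2 below it, and Ccnb1 and Cdk1 above it. The 7 tuft cell markers summed to 8.37 to 11.8 FPKM in control mice and to 2.66 to 7.68 FPKM in MYO5B-knockout mice, and to 5.93 to 9.11 FPKM in LPA-treated mice. The sum of 2.66 came from MYO5B-knockout mouse 3, without which the lowest of its group was 6.30 FPKM. Among these markers Avil did not fall, with 0.657 to 3.53 FPKM in control mice, 0.903 to 3.96 after knockout alone and 1.53 to 4.77 after knockout with LPA. The 6 Paneth cell markers summed to 9468 and 10490 FPKM in control mice 4 and 5 and to 3851 in control mouse 2, to 3501 to 6088 FPKM after knockout alone and to 1057 to 4024 FPKM after knockout with LPA. Defa24 gave most of each sum, and not every marker fell. Mmp7 lay between 17.4 and 44.1 FPKM in control mice, 39.1 and 63.1 after knockout alone and 31.0 and 55.0 after knockout with LPA. Lyz1 reached 1161 FPKM after knockout alone, beside at most 1129 in control mice. The 9 markers of gastric surface and squamous epithelium were all at 0 in control mice, and their sum reached at most 0.638 FPKM in a knockout mouse. The part of any of these markers in the differences of the fusion genes was not tested.

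Stx3 (ENSMUSG00000041488, chromosome 19 from 11775119 to 11819403, minus strand), the apical syntaxin itself, had levels of 11.5, 21.8 and 25.4 FPKM in control mice 2, 4 and 5. In MYO5B-knockout mice 3, 5, 6 and 7 they were 44.3, 58.4, 37.6 and 28.4 FPKM. LPA-treated mice 1, 4 and 5 had 49.0, 44.3 and 51.2 FPKM. The lowest knockout mouse, number 7, lay just above the highest control mouse. The log2 fold change of 1.13 (95% confidence interval 0.38 to 1.89) did not pass (limma's adjusted p = 0.117). For LPA-treated against control mice it was 1.37 (0.57 to 2.17, limma's adjusted p = 0.0845). Without the 2 libraries of few detected genes, the values were 0.75 and 1.03, with limma's adjusted p = 0.158 and 0.0703. Mrpl16 was the only other tested gene within 50 kb of Stx3, examined after the values were seen. It too was higher in every knockout mouse (28.7 to 51.6 FPKM) than in every control mouse (20.7 to 24.7 FPKM). Its difference between MYO5B-knockout and control mice did not pass (log2 fold change 0.84, limma's adjusted p = 0.123).

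Stxbp2 (ENSMUSG00000004626, chromosome 8 from 3630955 to 3643644, plus strand), which encodes Munc18-2, varied little. In the order of mouse numbers, control mice had 64.1, 64.6 and 65.5 FPKM, MYO5B-knockout mice 51.3, 60.5, 53.2 and 58.1 FPKM, and LPA-treated mice 64.5, 81.1 and 73.9 FPKM. Each MYO5B-knockout mouse lay below each control mouse, and each LPA-treated mouse lay above each MYO5B-knockout mouse. Neither difference passed: the log2 fold change was -0.22 (95% confidence interval -0.69 to 0.25, limma's adjusted p = 0.632) against control mice, and 0.39 (-0.08 to 0.86, limma's adjusted p = 1) for LPA-treated against MYO5B-knockout mice.

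Because syntaxin 3 and Munc18-2 work as a pair, the ratio of their levels was also taken within each library, where scaling between libraries cancels. This ratio was chosen after the values were seen and is given without a test. It was 0.179, 0.337 and 0.388 in control mice 2, 4 and 5, and 0.864, 0.966, 0.707 and 0.488 in MYO5B-knockout mice 3, 5, 6 and 7. LPA-treated mice 1, 4 and 5 had ratios of 0.760, 0.547 and 0.693. The ratio was above that of every control mouse in all 7 knockout mice, and the ranges of the MYO5B-knockout and LPA-treated mice overlapped. A separation was also seen against Stx4a, the syntaxin of the basolateral membrane, with ratios of Stx3 to Stx4a of 0.0955 to 0.486 in control mice, 0.634 to 1.61 after knockout alone and 0.730 to 1.40 after knockout with LPA. Against Snap23, the target membrane SNARE that pairs with syntaxins in epithelia, the groups overlapped. The ratios were 1.38 to 4.38 in control mice, 2.57 to 26.5 after knockout alone and 4.24 to 8.24 after knockout with LPA. The overlap with control mice came from control mouse 2 alone (4.38). The highest ratio, 26.5, was that of MYO5B-knockout mouse 3. Both mice gave libraries in which few genes were detected. Control mice 4 and 5 had ratios to Snap23 of 1.38 and 1.77, below those of all 7 knockout mice. A ratio alone does not show which of its genes differed. Mean Stx3 was 19.6 FPKM in control, 42.2 in MYO5B-knockout and 48.2 in LPA-treated mice. Mean Stxbp2 was 64.7, 55.8 and 73.1 FPKM in the same order.

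**Figure D2:**
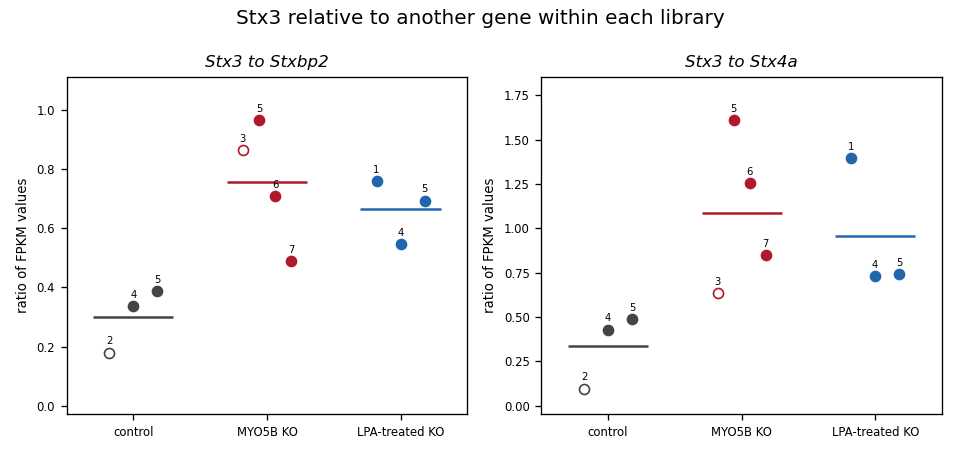
Ratio of the FPKM of Stx3 to that of Stxbp2 (left) and of Stx4a (right) within each library, for control, MYO5B-knockout (KO) and LPA-treated knockout mice; points are mice with their numbers, open circles are the 2 libraries with few detected genes (control mouse 2, MYO5B-knockout mouse 3), and lines are group means. The 3 control mice reach at most 0.388 and 0.486, below all 7 knockout mice in both panels.

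Vamp8 (ENSMUSG00000050732, chromosome 6 from 72385223 to 72390703, minus strand), a vesicle SNARE of endosomes and of secretory granules in exocrine cells, was the most abundant gene in every group. Control mice 2, 4 and 5 had 351, 106 and 126 FPKM. For MYO5B-knockout mice 3, 5, 6 and 7 the values were 235, 71.9, 55.9 and 83.8 FPKM, and for LPA-treated mice 1, 4 and 5 they were 87.3, 146 and 227 FPKM. The highest values of the control and MYO5B-knockout groups came from the 2 libraries with few detected genes, and the ranges of the groups overlapped. The log2 fold change was -0.83 between MYO5B-knockout and control mice (95% confidence interval -2.10 to 0.44, limma's adjusted p = 0.489). Leaving out control mouse 2 gave -0.30, and leaving out MYO5B-knockout mouse 3 gave -1.27.

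The 4 synaptotagmin-like genes did not pass in any comparison. Sytl2 (ENSMUSG00000030616, chromosome 7 from 90348699 to 90410439, plus strand) encodes Slp2, a Rab27 effector, and was the most abundant of them. Control mice had 0.312, 3.67 and 3.26 FPKM, MYO5B-knockout mice 1.64, 7.92, 5.67 and 4.30 FPKM, and LPA-treated mice 7.43, 8.84 and 5.35 FPKM. Control mouse 2 and MYO5B-knockout mouse 3 were the lowest of their groups, and all LPA-treated mice lay above all control mice. The log2 fold changes against control mice were 1.32 for MYO5B-knockout mice (95% confidence interval -0.40 to 3.05) and 2.04 for LPA-treated mice (0.20 to 3.89), with limma's adjusted p = 0.414 and 0.256. Without those 2 libraries they were 0.73 and 1.01. For MYO5B-knockout mice the value was 0.29 without control mouse 2 alone and 1.76 without MYO5B-knockout mouse 3 alone. Both fold changes thus rested in part on control mouse 2.

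Sytl1 (ENSMUSG00000028860, chromosome 4 from 133253090 to 133263113, minus strand), another Rab27 effector, had 0 and 3 reads in control mouse 2 and MYO5B-knockout mouse 3. In the other libraries it lay at 1.65 and 2.55 FPKM in control mice, between 1.40 and 1.75 FPKM in MYO5B-knockout mice and between 1.30 and 1.72 FPKM in LPA-treated mice. Its log2 fold change between MYO5B-knockout and control mice was 0.38 with all libraries and -0.34 without these 2 (limma's adjusted p = 0.896 and 0.515).

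Sytl4 and Sytl5 are both located on the X chromosome, from 133936385 to 133981812 on the minus strand (ENSMUSG00000031255) and from 9885622 to 9994543 on the plus strand (ENSMUSG00000054453). Sytl4 encodes granuphilin or Slp4, which binds Rab27 and syntaxins and links syntaxin 3 to apical vesicles. Control mice had 0.458, 0.450 and 0.548 FPKM of Sytl4, MYO5B-knockout mice 1.39, 0.711, 0.60 and 0.473 FPKM, and LPA-treated mice 0.926, 0.647 and 0.660 FPKM. The highest values of the knockout groups came from MYO5B-knockout mouse 3 and LPA-treated mouse 1, the libraries with Xist, and the part of that difference was not tested. The log2 fold change against control mice was 0.51 for MYO5B-knockout mice, and 0.24 without both of these libraries (limma's adjusted p = 0.611 and 0.675). Sytl5 had at most 13 reads in any library and 0 in control mouse 2 and MYO5B-knockout mouse 3, and a difference was not detectable at this depth (log2 fold change 0.23, 95% confidence interval -1.03 to 1.49).

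Syt7 (ENSMUSG00000024743, chromosome 19 from 10389090 to 10453181, plus strand), is a calcium sensor of lysosome exocytosis. Control mice had 0.967, 1.10 and 1.23 FPKM of Syt7, MYO5B-knockout mice 0.481, 2.72, 1.76 and 1.62 FPKM, and LPA-treated mice 2.42, 1.97 and 1.45 FPKM. All LPA-treated mice and 3 of the 4 MYO5B-knockout mice lay above the control mice, and MYO5B-knockout mouse 3, from a library with few detected genes, lay below them. The log2 fold change was 0.34 for MYO5B-knockout mice and 0.75 for LPA-treated mice against control mice (limma's adjusted p = 0.791 and 0.548). The first value was 0.80 without MYO5B-knockout mouse 3 and 0.041 without MYO5B-knockout mouse 5. The annotated span of Syt7 overlaps the lincRNA Gm26859, which had 1 read in all libraries together, and AC124169.1, which shares no exonic base with it. No other member overlaps an annotated gene.

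LPA was given to ask whether it changes the epithelium that lacks MYO5B. Between LPA-treated and MYO5B-knockout mice, 0 of the 9 genes passed with limma, where 0% of all tested genes passed, and edgeR also called 0 of the 9, against 0% of all genes. At an unadjusted p under 0.05, limma found 459 of 15729 genes, and none of the 9 was among them. The fitted log2 fold change was above 0 for all 9 genes, by 0.0021 in Sytl4, whose sign turned under other scalings, with a median of 0.43, beside 0.11 over all genes. For Syt8 the difference was 0.66 (95% confidence interval -0.71 to 2.04), and for Stx3 it was 0.24 (-0.51 to 0.99). For Sytl2 it was 0.72 (-1.003 to 2.45), for Vamp8 0.59 (-0.67 to 1.86) and for Syt7 0.41 (-0.81 to 1.63). These intervals leave room for differences of more than 1 log2 unit in all but Stx3 and Stxbp2. Stxbp2 alone was higher in every LPA-treated mouse than in every MYO5B-knockout mouse, as were 3.56% of all tested genes, and no member was lower in this sense, as 0.604% of all genes were.

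Between LPA-treated and control mice, 1 of the 9 genes passed with limma, again Syt8, and 2.32% of all tested genes did (2.40% with edgeR, which again called Syt8 alone among the 9). This comparison shares its control mice with that of the MYO5B-knockout mice. Stx3, Sytl2, Sytl4, Syt7 and Syt8 were higher in every LPA-treated mouse than in every control mouse, 5 of 9 genes beside 20.5% of all tested genes. None of the 9 was lower without overlap, as 6.38% of all tested genes were. The median log2 fold change of the 9 genes was 0.75, beside 0.41 over all genes, and 0.57 beside 0.10 with the libraries scaled by the median of their ratios.

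**Figure D3:**
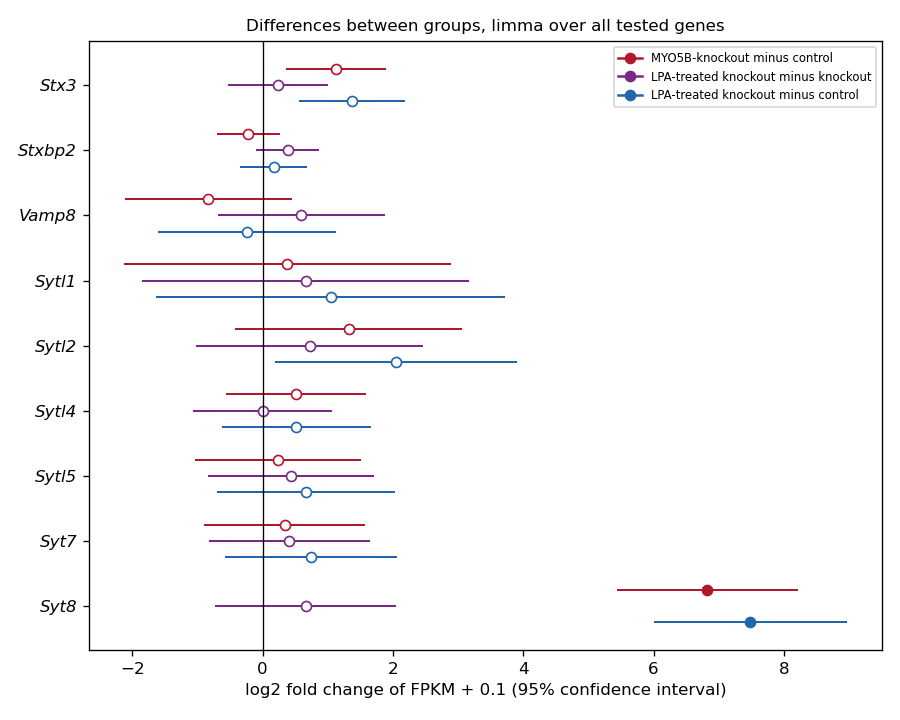
Log2 fold change of FPKM + 0.1 of the 9 genes (horizontal axis) in the 3 comparisons, with 95% confidence intervals from limma; filled points passed an adjusted p of 0.05 and open points did not. Syt8 alone passed, in both comparisons with control mice, with fitted values of 6.82 and 7.48 that depend on the 0.1 FPKM added.

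The genes that work with the 9 members were described by 5 lists. Of 22 other SNAREs of the plasma membrane and endosomes, 21 were tested, and 1 fell between MYO5B-knockout and control mice. It was Vamp5, a vesicle SNARE known from muscle. Control mice had 16.7, 6.70 and 7.66 FPKM of Vamp5, MYO5B-knockout mice 2.44, 0.352, 0.861 and 0.673 FPKM, and LPA-treated mice 0.669, 1.44 and 0.729 FPKM. All 7 knockout mice lay below all control mice, with log2 fold changes of -3.32 and -3.27 (standard error 0.62 and 0.66, limma's adjusted p = 0.0283 and 0.0340). The call was lost when single mice were left out, with limma's adjusted p of up to 0.113 and 0.139, and with edgeR for LPA-treated mice (0.0550, beside 0.0476 for MYO5B-knockout mice). The fall of Vamp5 went with that of the summed leukocyte markers given above, of which not all fell, and their part in it was not tested. Stx1a, the syntaxin of neurosecretory cells, rose between LPA-treated and control mice, from 0.251, 0.659 and 0.712 FPKM to 2.43, 2.85 and 3.64 FPKM (log2 fold change 2.34, standard error 0.49, limma's adjusted p = 0.0400, and 0.0512 with edgeR). This call too was lost when single mice were left out, with limma's adjusted p of up to 0.171. In MYO5B-knockout mice Stx1a lay between 1.22 and 2.29 FPKM, above every control mouse, and did not pass (limma's adjusted p = 0.0958). Without the 2 libraries of few detected genes, 4.95% and 8.56% of all tested genes passed against control mice. There Stx1a passed for MYO5B-knockout and LPA-treated mice (limma's adjusted p = 0.0411 and 0.0122), as did Vamp5 (0.0149 and 0.0147). The 7 enteroendocrine markers summed to 322.0 to 724.6 FPKM in control mice, 238.6 to 657.5 after knockout alone and 343.5 to 826.7 after knockout with LPA, with overlapping ranges. The sums of 724.6 and 657.5 came from the 2 libraries of few detected genes, mostly through Sct (543.6 and 502.3 FPKM). Without these libraries the sums reached 396.9 and 397.8 FPKM. Among these markers Chgb alone was higher in every LPA-treated mouse (67.9 to 106.3 FPKM) than in every control mouse (50.2 to 58.8 FPKM). The 6 neuronal markers summed to 0.307 to 0.844, 0.737 to 2.90 and 2.30 to 6.84 FPKM in the same order of groups. The part of either set of markers was not tested.

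No gene of the other 4 lists passed with limma in any comparison when all 10 libraries were used. These were 18 tested genes of SNARE regulation and disassembly, 10 synaptotagmin-related C2 proteins, 19 exocyst and Rab partners and 13 SNAREs of the endoplasmic reticulum and Golgi. Between MYO5B-knockout and control mice their median log2 fold changes were 0.35, -0.37, 0.47 and -0.06, and that of the plasma membrane and endosomal SNAREs 0.09, beside 0.29 over all genes. With the libraries scaled by the median of their ratios, the median of the plasma membrane and endosomal SNAREs turned to -0.20. Nsf, the ATPase that takes SNARE complexes apart, did not pass with limma on all libraries but passed with edgeR. Control mice had 5.43, 9.95 and 8.39 FPKM of Nsf and the 7 knockout mice between 12.3 and 29.3 FPKM, without overlap (edgeR's adjusted p = 0.0389 and 0.0371, limma's 0.0695 and 0.0679). Without the 2 libraries of few detected genes, where 4.95% and 8.56% of all tested genes passed against control mice, Nsf passed with limma in both comparisons (adjusted p = 0.0231 and 0.0211). So did Esyt1, a tether between endoplasmic reticulum and plasma membrane, and Exoc5, an exocyst subunit, both at higher levels after knockout, and Sytl3, at lower levels. Sec22b, a SNARE of the endoplasmic reticulum, passed there for LPA-treated mice, also at a higher level. These genes were chosen for mention after their values were seen. Between LPA-treated and MYO5B-knockout mice the 5 list medians lay between 0.0019 and 0.55.

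**Figure D4:**
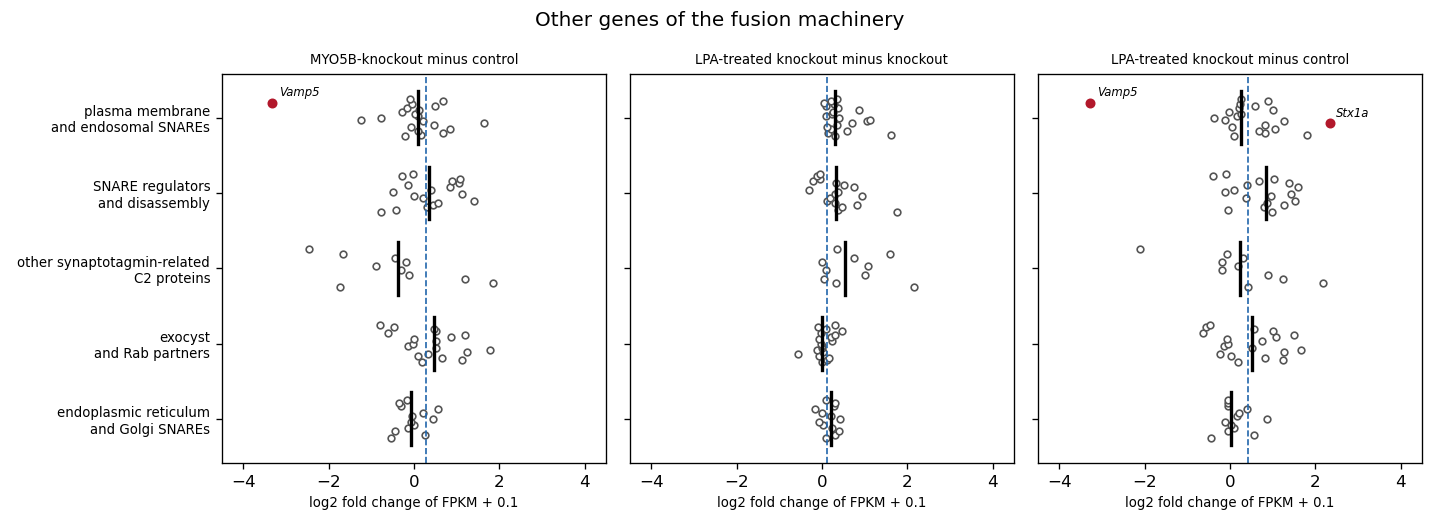
Log2 fold change of FPKM + 0.1 (horizontal axis) of each tested gene of the 5 lists in the 3 comparisons; red points passed limma's adjusted p of 0.05, black bars are list medians and the dashed line is the median over all tested genes. Vamp5 lies at -3.32 and -3.27 in the comparisons with control mice, Stx1a at 2.34 in LPA-treated against control mice, and no gene is red between LPA-treated and MYO5B-knockout mice.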

How the data were processed

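FPKM values (reads scaled to gene length and to the reads of a library that lie on genes) of 35275 genes in 10 poly-A selected libraries were deposited by the authors, with read counts for a few genes. The submitters' processing notes name STAR 2.5, TopHat, HTSeq 0.6.1, DESeq2 and GRCm38 (mm10); no scaling between libraries, nor counting by strand, is given in the sources used here. Multiplied by gene length, 100% of FPKM values were whole multiples of 1 read (tolerance 0.01 reads), and 63 of 63 deposited counts equalled the recovered reads. Columns of the authors' own comparisons were not used.

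The log2 of FPKM + 0.1 was fitted for the 15729 genes that averaged 0.1 FPKM or more, by limma 3.58.1 with a trended variance and all 3 groups in 1 model (R 4.3.3). Tests were two-sided with Benjamini-Hochberg adjustment over all genes, and 0.05 was the threshold. edgeR 4.0.16 on recovered reads, median-ratio scaling, a pseudocount of 1 FPKM, no filter, each mouse left out, and pairs of libraries left out were alternatives. Mice are the replicates. FPKM limits are set by depth, and floors of 3 reads cover counting error only. Of 34490 identifiers shared with GENCODE M21, 24932 had identical coordinates, as had 6 of the 9 members.

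The members and lists were chosen with earlier results of these data known. Named genes were all members, Myo5b, list genes that passed (at most 5 per list and comparison), the 3 genes most correlated with a member that passed (of which 1 is not reported here), and genes overlapping a member.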

Additional observations from a re-analysis of the deposited data

Results flagged for a closer look

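The level of Vamp8 in MYO5B-knockout mouse 3, 234.8 FPKM, lay far from those of the other 3 MYO5B-knockout mice (55.9 to 83.8 FPKM), with a gap of 0.844 of the group's whole range, above Dixon's critical value for 4 samples. It was 1 of 10 genes examined in this group, and chance alone marks about 1 group in 20. The same library had 12601 detected genes and 18.1% of reads on mitochondrial genes, and control mouse 2, whose library shared these features, had 351 FPKM of Vamp8. The part of these features in the level of Vamp8 was not tested.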

How the results depend on the processing

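The number of members called, 1 in each comparison with control mice and 0 between LPA-treated and MYO5B-knockout mice, was the same under every alternative run, leaving out each of the 10 mice included, with 1 exception. With the mouse number as a replicate block (control and LPA-treated mice 4 and 5 only) 0 members and 0 of all genes were called, and the difference of Syt8 was 7.96 on the log2 scale (adjusted p = 0.155 with limma). The deviations of same-numbered mice from their group means correlated at 0.104 and -0.355 for control and LPA-treated mice 4 and 5, at 0.30 for control and MYO5B-knockout mouse 5 and at -0.214 for MYO5B-knockout and LPA-treated mouse 5. These values cannot exclude a pairing, because the control and MYO5B-knockout means include the libraries of few detected genes. The labels state no pairing, and the mice were taken to share a number only. Over the alternatives, the adjusted p of Syt8 lay between 0.00168 and 0.0114 for MYO5B-knockout and between 0.000906 and 0.155 for LPA-treated against control mice, and that of Stx3 between 0.107 and 0.297 and between 0.0682 and 0.262.

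Signs turned only in members that were not called. Against control mice, Sytl1 in MYO5B-knockout mice was at -0.00714 (pseudocount 1), -0.34 (without both libraries of few detected genes), -0.38 (edgeR) and between -1.10 and 1.27 with a mouse left out (lowest without control mouse 2), and Sytl5 between -0.14 (without control mouse 2) and 0.56. In LPA-treated mice Sytl1 was at -0.43 (without both libraries), -0.044 (edgeR), -0.34 (replicate block) and between -0.43 (without control mouse 2) and 1.93 with a mouse left out, Stxbp2 at -0.20 (median-ratio scaling) and -0.18 (edgeR), and Vamp8 at 0.30 (without both libraries), 0.12 (without both libraries with Xist), 0.65 (replicate block) and between -0.57 and 0.30 with a mouse left out (above 0 without control mouse 2 or LPA-treated mouse 1). Between LPA-treated and MYO5B-knockout mice, Sytl4 was at -0.018 (pseudocount 1), -0.084 (median-ratio scaling), -0.29 (edgeR) and between -0.18 and 0.28 with a mouse left out. Without both libraries of few detected genes, Sytl1 was at -0.088 and Syt7 at -0.052, and with a mouse left out they lay between -0.088 and 0.96 and between -0.052 and 0.71, the lowest without MYO5B-knockout mouse 3. Without both libraries with Xist, Syt7 was at -0.22 and Sytl5 at -0.049. The cause was not tested.

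Over all genes, 316 were called between MYO5B-knockout and control mice (177 higher, 139 lower), 598 with median-ratio scaling (223 higher, 375 lower), which moved the median of all genes by 0.25, 188 without the filter, 778 without both libraries and 44 to 403 with a mouse left out. For LPA-treated against control mice 365 were called (243 higher, 122 lower), 490 with median-ratio scaling (221 higher, 269 lower, median moved by 0.31), 1346 without both libraries and 73 to 702 with a mouse left out. Depth limits Sytl5, Sytl1 in the 2 libraries with few detected genes, and the bound on Syt8.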
